A study of Mus musculus with 2 samples.

Results

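Accessible sites deep inside long genes were described in sorted spinal motor neurons of the mouse embryo. A site belonged to this set when the summit of its peak lay on chromosomes 1 to 19, inside a protein-coding gene with a span of 200 kb or more, and more than 50 kb from every protein-coding gene end. The rule selected 15567 summit entries in 12469 separate peak intervals, which is 11.6% of the 134427 entries on these chromosomes and part of a list of 138387 entries in all. The rule used position alone, so the strength of the sites and the genes that hold them were free to vary. Counted against the ends of all annotated genes, non-coding ones included, 8957 entries remained more than 50 kb from an end.

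The data came from ATAC-seq, in which the Tn5 transposase cuts and tags open chromatin. There was 1 group: GFP-positive cells sorted from Hb9::GFP embryos at embryonic day 10.5, on the C57/Bl6 strain, labelled as spinal motor neurons. The reporter is driven by the Hb9 (Mnx1) promoter, so the sort took cells in which that motor neuron promoter is active. The 2 replicates were pooled by the authors into 1 peak list, so no value below has a replicate error and no difference could be tested between samples. Among motor neuron markers, 7 of 9 genes had an entry within 1 kb of a gene end, Isl2 and Prph being the exceptions, compared with 67.1% of all protein-coding genes. On the same chromosomes, all 8 general neuron markers, all 7 neural progenitor markers and 7 of 8 spinal interneuron markers also had one. So did 6 of 6 sensory neuron and neural crest markers, 5 of 7 endothelial, 4 of 7 muscle and somite, 2 of 6 blood (Csf1r and Spi1), 2 of 6 epidermal and 2 of 5 mature glial markers. The part that cells other than motor neurons have in the sites below was not tested.

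Long genes are a feature of the nervous system. Many of the longest code for adhesion molecules, receptors and channels of axons and synapses, and most of their span is intron. Introns can hold enhancers, which act on the host gene or on another gene, as well as internal promoters from which shorter forms of the same protein are made. An ATAC-seq peak shows that a site is open and does not tell these apart.

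Of the deep sites, 1.77% (276 entries in 141 intervals) overlapped the start of a protein-coding transcript as RefSeq annotates it, and the letters at such starts can be shown. RefSeq's table of the GRCm38.p6 assembly, on which mm10 is based, gives the 250 bases before and the 50 bases after a start. It had 704 of the 932 long genes. Sites in the others could not be matched to a start of their host gene. The 250 bases before 9 such internal starts are printed 5′ to 3′ on the strand of the gene, in lower case with every CG pair in capitals, because the share of open starts is given by CG number further on. A start is called open where its window overlaps a listed interval. The first belongs to the open start with the highest fold, in Stard13, a regulator of small GTPases. The next are the strongest open start of each of the 10 site-richest genes that has one: Robo2 and Robo1, receptors for Slit in axon guidance, Nrxn3, a presynaptic neurexin, and Dlg2, a postsynaptic scaffold protein. They lie at chr5:151190194-151190443 (minus strand), chr16:74411826-74412075 (minus), chr12:89812233-89812482 (plus), chr7:92234720-92234969 (plus) and chr16:72662899-72663148 (plus).
Stard13, open: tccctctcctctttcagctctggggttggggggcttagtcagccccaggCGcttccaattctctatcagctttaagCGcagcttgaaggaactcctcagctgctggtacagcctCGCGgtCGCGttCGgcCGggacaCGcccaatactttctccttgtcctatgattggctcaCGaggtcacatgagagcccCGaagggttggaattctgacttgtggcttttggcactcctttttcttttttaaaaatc
Robo2, open: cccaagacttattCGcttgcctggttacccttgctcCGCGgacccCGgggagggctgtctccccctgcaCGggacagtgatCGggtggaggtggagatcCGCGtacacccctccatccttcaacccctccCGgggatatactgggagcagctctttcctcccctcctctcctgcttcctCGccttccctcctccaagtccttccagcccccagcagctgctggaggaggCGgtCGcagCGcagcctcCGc
Nrxn3, open: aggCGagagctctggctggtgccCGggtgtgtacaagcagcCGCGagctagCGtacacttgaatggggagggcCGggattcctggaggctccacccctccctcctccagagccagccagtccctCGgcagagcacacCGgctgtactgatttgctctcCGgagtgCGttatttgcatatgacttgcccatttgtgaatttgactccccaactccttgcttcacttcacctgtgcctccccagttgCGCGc
Dlg2, open: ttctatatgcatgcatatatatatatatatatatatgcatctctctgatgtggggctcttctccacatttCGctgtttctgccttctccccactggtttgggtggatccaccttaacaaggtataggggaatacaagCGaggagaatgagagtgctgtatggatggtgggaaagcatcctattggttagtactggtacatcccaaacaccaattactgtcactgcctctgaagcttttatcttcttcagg
Robo1, open: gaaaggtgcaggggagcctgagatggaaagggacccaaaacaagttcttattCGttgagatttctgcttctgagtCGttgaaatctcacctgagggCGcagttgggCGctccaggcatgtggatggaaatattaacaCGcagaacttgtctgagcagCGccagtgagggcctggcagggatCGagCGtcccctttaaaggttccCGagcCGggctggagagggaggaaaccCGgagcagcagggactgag

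For contrast, the internal start without an entry that has the lowest coordinate was taken from each of the same 10 genes. These lie in Nrxn3 at chr12:88794254-88794503 (plus), in Tenm3, a teneurin adhesion molecule, at chr8:48674691-48674940 (minus), in Dlg2 at chr7:91090536-91090785 (plus) and in Sox5, a SoxD transcription factor, at chr6:143947107-143947356 (minus).
Nrxn3, no entry: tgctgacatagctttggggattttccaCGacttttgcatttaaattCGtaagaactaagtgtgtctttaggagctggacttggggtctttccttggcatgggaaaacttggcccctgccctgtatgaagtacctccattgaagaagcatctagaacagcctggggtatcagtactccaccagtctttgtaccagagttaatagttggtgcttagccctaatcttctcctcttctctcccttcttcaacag
Tenm3, no entry: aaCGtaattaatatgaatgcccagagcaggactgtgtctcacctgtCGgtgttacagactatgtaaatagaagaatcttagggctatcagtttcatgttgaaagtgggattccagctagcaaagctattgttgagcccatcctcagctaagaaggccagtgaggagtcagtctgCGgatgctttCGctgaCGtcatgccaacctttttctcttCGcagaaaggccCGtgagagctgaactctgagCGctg
Dlg2, no entry: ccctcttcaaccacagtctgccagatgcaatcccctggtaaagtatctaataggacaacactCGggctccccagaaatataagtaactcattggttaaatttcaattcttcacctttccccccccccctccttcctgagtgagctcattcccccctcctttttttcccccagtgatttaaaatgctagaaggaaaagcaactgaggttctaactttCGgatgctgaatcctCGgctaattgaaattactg
Sox5, no entry: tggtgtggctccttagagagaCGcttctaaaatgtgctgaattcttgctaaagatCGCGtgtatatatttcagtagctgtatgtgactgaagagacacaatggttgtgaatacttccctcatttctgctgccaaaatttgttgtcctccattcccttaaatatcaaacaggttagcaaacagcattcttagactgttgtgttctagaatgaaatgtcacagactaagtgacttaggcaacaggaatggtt

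The 5 open starts have 2 to 14 CG pairs in these 250 bases and the 4 others have 2 to 8, so the printed examples overlap. Dlg2 shows the overlap within 1 gene. Its open start at 92234970 has 2 CG pairs and its start without an entry at 91090786 has 3. The interval at the open start runs from 92234898 to 92236062, so most of the bases printed for that start lie outside it. Nrxn3 shows the wider difference, with 12 CG pairs at its open start and 2 at the other. Neurexin genes are known to make a long alpha form and shorter forms from internal promoters. Whether the annotated starts printed here act as promoters was not tested.

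Deep sites were denser than sites between genes that also lay more than 50 kb from every gene end. They numbered 52.5 per Mb over the 296.3 Mb of sequence that could hold one (95% exact Poisson interval 51.7 to 53.4). Between genes and more than 50 kb from every end there were 28171 entries over 863.5 Mb, or 32.6 per Mb (32.2 to 33.0). The deep density was 1.61 times as high (95% interval 1.58 to 1.64). It was higher on 19 of 19 chromosomes, from 1.18 times on chromosome 13 to 1.94 times on chromosome 7, with a median of 1.64. Sequence between genes reached farther from gene ends. Weighted to the distance classes of the deep sequence, the deep density was 1.41 times as high, a comparison added after the data were seen. These intervals cover counting error only. They treat entries as independent, although several can share an interval, and assembly gaps were not removed from either length.

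Deep sequence exceeded sequence between genes in every class of distance over 50 kb, from 1.29 times at 50 to 75 kb to 1.998 times over 500 kb. In long genes the density fell from 119 per Mb at 1 to 5 kb to 58.9 at 5 to 10 kb, and then changed little out to 56.8 at 50 to 75 kb and 59.1 at 75 to 100 kb. Beyond that it declined slowly to 44.3 per Mb at 300 to 500 kb and 39.5 (36.5 to 42.7) over 500 kb from any end. Between genes the decline was steeper, from 44.1 per Mb at 50 to 75 kb to 29.4 at 300 to 500 kb and 19.8 (19.2 to 20.4) over 500 kb. The most remote parts of long genes thus had about the density found between genes at 100 to 150 kb, 39.1 per Mb. There was no step at the limit of 50 kb that defines the set. The 558 entries of long genes at 45 to 50 kb and the 547 at 50 to 55 kb had the same median of 3.06-fold, with 21 and 22 reads. At the limit on gene span, genes of 180 to 200 kb had 58.9 deep entries per Mb and those of 200 to 220 kb 65.5, with a median of 2.83-fold in both.

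**Figure D1:**
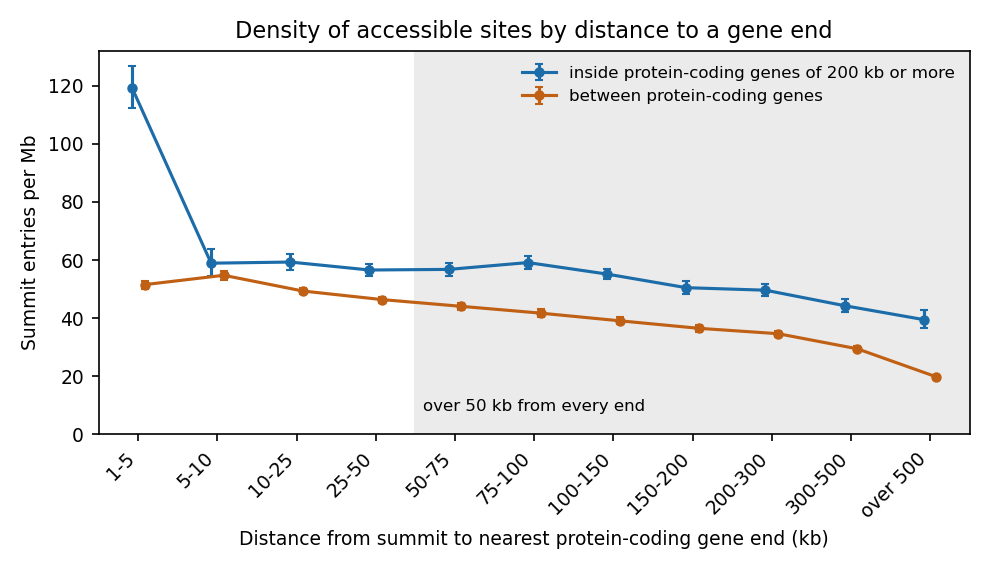
Summit entries per Mb (y axis) by distance to the nearest protein-coding gene end in kb (x axis), inside genes of 200 kb or more (blue) and between genes (orange), with 95% exact Poisson intervals and the deep range shaded. The blue points stay between 39.5 and 59.1 per Mb in the shaded range, above the orange points in every class.

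Deep sites had modest enrichment, with the same medians as sites far from genes. Fold is the authors' ratio of the signal at the summit to the local background. The reads at a summit were solved from the deposited fold and p-value, and are overlapping reads or fragments at 1 base. The median deep site had 2.98-fold enrichment and 20 reads over a background of 5.37, and 90% of the sites had between 11 and 73 reads. That background is the lowest in the list, so for at least 50% of deep sites fold only restates the read number. The intergenic sites had the same medians, 2.98-fold and 20 reads. Their highest values were larger, with 5% above 9.004-fold, against 7.995-fold for deep sites. Sites within 1 kb of a gene end had medians of 5.49-fold and 65 reads. Of deep sites, 2.34% had 100 reads or more, against 3.20% between genes and 31.3% at gene ends. Intervals holding deep sites had a median width of 349 bp, against 328 bp between genes and 946 bp at gene ends. A q-value under 0.05 was reached by 79.98% of deep sites (95% exact binomial interval 79.3 to 80.6%) and by 79.8% of the intergenic ones. Over all entries on these chromosomes the share was 82.1%.

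The spacing of deep sites was described without a comparison, and how much of it follows from their density alone was not tested. The midpoint of the nearest other interval with a deep site lay at a median of 5393 bp, 67.9% of intervals had one within 10 kb, and 4.15% had none within 50 kb. The densest window of 100 kb lay in Slit3, which codes for a ligand of Robo receptors, at chromosome 11, 35451666 to 35551665, and held 35 entries in 25 intervals with at most 8.16-fold. The next were in Gse1 (chromosome 8, 120326998 to 120426997) with 32 entries and in Rnf220, a ubiquitin ligase (chromosome 4, 117322191 to 117422190), with 30. The window in Robo2 (chromosome 16, 74369758 to 74469757) held 29 entries and had the highest median of these at 3.84-fold. Its range spans the open internal start printed above. The highest entry of these windows was 5.69-fold in Gse1, 6.34-fold in Rnf220 and 12.2-fold in Robo2.

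Nearly every long gene held a deep site. Of 944 long genes, 932 had sequence more than 50 kb from every end, and 910 of these (97.6%, 95% exact binomial interval 96.5 to 98.5%) had at least 1 entry there. The share rose with deep length, from 12 of 14 genes at 50 to 100 kb to 381 of 395 at 100 to 200 kb. Above 400 kb every gene had an entry. The median was 11 entries per gene, the central 50% of genes had 6 to 22, and 5% had 49 or more. Per Mb of deep sequence the median gene had 47.3 entries, with 90% of genes between 7.29 and 140. The 10 richest genes held 7.06% of the entries and 173 genes held 50% of them. An entry inside overlapping long genes was counted for each, which added 56.

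Robo2 led the counts with 134 entries in 1455.5 kb, or 92.1 per Mb (95% exact Poisson interval 77.1 to 109). Robo1, its neighbour on chromosome 16, had 93 entries at 101 per Mb. Between them came Macrod2, a mono-ADP-ribose hydrolase, with 130 entries at 72.9 per Mb, Auts2, a neuronal gene of chromatin and cytoskeleton regulation, with 124 at 123 per Mb, and Nrxn3 with 122 at 80.7. Ptprd, a receptor phosphatase of synapse formation, had 120 entries at 55.3 per Mb. Tenm3 had 104 at 86.9, Dlg2 97 at 51.8, Pde4d, a cyclic AMP phosphodiesterase, 92 at 76.6 and Sox5 87 at 102. All of these except Dlg2 exceeded the density pooled over all long genes, 52.6 per Mb, although the lower bounds of Ptprd and Dlg2 did not.

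By density the order was different, and shorter genes led. Among genes with 100 kb or more of deep sequence, Gse1, a proposed partner of histone-modifying complexes, had 277 entries per Mb (216 to 349.9), 70 in all. Nhsl1 followed with 241, Rnf220 with 239, Sh3rf1 with 234 and Filip1 with 223. The intervals of these 4 overlapped each other and that of Gse1. Neither the order among them nor the lead of Gse1 exceeds counting error. Cdh2, which codes for N-cadherin, had 208 per Mb, Dach1, a nuclear cofactor in eye and limb development, 201.5, Celf4, a neuronal RNA-binding protein, 198 and Meis2, a homeobox factor, 198. Over classes of deep length the pooled density fell, from 63.6 per Mb in genes with 100 to 200 kb to 55.7 at 200 to 400 kb, 49.1 at 400 to 800 kb and 44.5 above that.

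The longest genes were not the densest. Ptprd has the most deep sequence of any gene, 2170.5 kb. Cntnap2, a neurexin-family adhesion protein with 2141.3 kb, had 68 entries at 31.8 per Mb. Lrp1b, a lipoprotein receptor with 1958.3 kb, had 41 at 20.9 per Mb, and Lsamp, an immunoglobulin adhesion molecule with 1897.4 kb, had 76 at 40.1. Fhit had 71 at 46.96 per Mb and Pcdh15, a protocadherin of hair cells and photoreceptors, 34 at 23.4. The intervals of Cntnap2 (24.7 to 40.3), Lrp1b (15.0 to 28.4) and Pcdh15 (16.2 to 32.7) lay below the pooled 52.6.

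No deep site was listed in 22 genes, of which 15 had 100 kb or more of deep sequence. Spock3, a secreted proteoglycan gene, stood out with 306.1 kb and 0 entries, for which the exact Poisson upper bound is 12.1 per Mb. It did have an entry at its annotated start, of 5.21-fold and 41 reads. Then came Hecw1 with 196.8 kb, Shisa9 with 187.3 kb and Ofcc1 with 186.1 kb. The other 6 of the 10 longest were Slc22a22, Phkb, Catsperb, Ralgapa1, Nubpl and Abi3bp, with 112.3 to 133.9 kb each. The lowest listed summit has 11 reads, the filter on the list is not known, and a site without an entry is not shown to be closed.

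**Figure D2:**
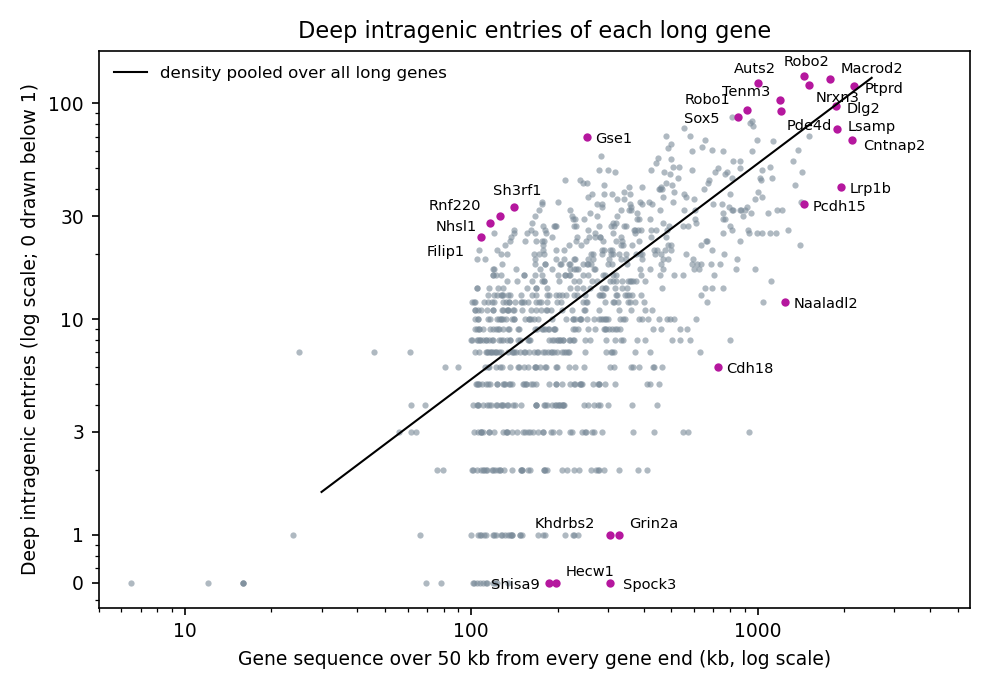
Deep intragenic entries (y axis, log scale, with 0 drawn below 1) against deep sequence in kb (x axis, log scale) for each of 932 long genes, with the pooled density of 52.6 per Mb as a line and selected genes in magenta. Robo2 with 134 entries and Gse1 with 70 sit above the line, and Lrp1b with 41, Cdh18 with 6 and Spock3 with 0 below it.

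Density differed widely with the role of the host gene. Long transcription factors and chromatin cofactors had 1432 entries in 46 genes, 88.1 per Mb (83.6 to 92.8), and 38 of the 46 lay above the median gene of 47.3 per Mb. All 46 held a deep site, beside 97.6% of all long genes. Auts2 had 124 entries, Sox5 87 and Zfhx3, a zinc finger homeobox factor, 71. Nr3c2, the mineralocorticoid receptor, had the lowest density of the list at 24.3 per Mb. Motor neuron regulators among them, named after their values were seen, were Foxp1, a forkhead factor that specifies limb motor neurons, with 65 entries at 131 per Mb, and Ebf1, with 42 at 145 per Mb.

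Genes of the cytoskeleton and of trafficking were nearly as dense, at 79.7 per Mb (74.1 to 85.7) over 28 genes, 21 of them above the median gene. Nav2, a neuron navigator, had 77 entries at 140 per Mb, Ank2, a membrane adaptor of axons, 71 at 148, and Frmd4a 55 at 111. Map2, the microtubule protein of dendrites, had 30 entries at 179 per Mb.

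Axon guidance ligands and receptors had 66.4 per Mb (61.6 to 71.5) over 21 genes, 14 of them above the median gene. After Robo2 and Robo1 came Dcc, the netrin receptor, with 68 entries at 68.2 per Mb. The list was wide, from Efna5, an ephrin, with 151 per Mb to Erbb4, a neuregulin receptor, with 17.4. RNA-binding and splicing proteins had 65.99 per Mb (58.9 to 73.7) in 9 genes. Rbms3 and Celf2 had 60 entries each, and Msi2 had 49 at 176 per Mb. Khdrbs2 had a single entry in 304.9 kb, although its annotated start carried 16.2-fold and 238 reads.

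Adhesion genes lay near or below the average. Immunoglobulin-family adhesion molecules had 49.1 per Mb (45.8 to 52.6), with 15 of 27 genes above the median gene. Ptprd, Lsamp and Negr1 (68 entries, 104 per Mb) had the most entries. Cadherins, protocadherins and catenins had 42.5 per Mb (38.6 to 46.8), with 8 of 16 above it. Ctnna2, neuronal alpha-catenin, had 54 entries, Pcdh9 48 and Fat3 47. Cdh2 at 208 per Mb and Cdh18 at 8.25 were the extremes of that list. Synaptic adhesion and scaffold proteins had 44.7 per Mb (42.3 to 47.3), with 14 of 37 above it, and the 0 of Magi3 in 107.1 kb. Magi3 had 9.81-fold and 238 reads at its annotated start.

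Channels and receptors of excitable cells had low densities. Ion channel subunits had 36.7 per Mb (33.5 to 40.2) over 32 genes, 10 of them above the median gene. Cacna2d1, a calcium channel subunit, had 39 entries at 115 per Mb, Kcnip4 37 at 35.7 and Dpp10, a partner of potassium channels, 35 at 24.8. Transmitter receptors had 29.0 per Mb (25.6 to 32.8) over 22 genes, the lowest of the 16 lists, and 2 of the 22 lay above the median gene. The glutamate receptor genes Grm7 and Grid1 had 32 and 23 entries at 38.9 and 34.7 per Mb. Grin2a, an NMDA receptor subunit, had 1 entry in 328.2 kb. At the gene ends the picture was different. An entry within 1 kb of an end was listed for 20 of 22 receptor genes (90.9%) and 27 of 32 channel genes (84.4%), beside 84.0% of all long genes.

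Lists of other roles fell between. Kinases, phosphodiesterases and GTPase regulators had 49.5 per Mb (45.9 to 53.4) in 35 genes, where Pde4d had 92 entries and Plcb1 60. Genes known for large common fragile sites had 53.4 per Mb (50.1 to 56.9) in 16 genes, where Macrod2, Auts2 and Dlg2 had most and Naaladl2 had 12 entries in 1246.0 kb. Matrix and glycan genes had 40.7 per Mb (36.7 to 45.1) in 23 genes, with Gpc6 at 83 entries, Gpc5 at 54 and Adamtsl1 at 45.

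Lists chosen for cells outside the nervous system were not uniformly low. Muscle and heart genes had 36.9 per Mb (31.7 to 42.7) in 13 genes, with none listed in Neb, the giant protein nebulin of muscle. Blood and immune genes had 63.2 (55.2 to 72.0) in 13 genes, led by Aff3 with 41 entries, Elmo1 with 35 and Bach2 with 29. Liver, kidney and gut genes had 68.8 (60.5 to 77.9) in 9 genes, where Gpc6, Dpyd with 47 and Slc39a11 with 34 had most. Genes of the blood vessel lining had 80.7 (69.3 to 93.5) in 7 genes, of whose 178 entries Plcb1 gave 60 and Dach1 57. Of the 333 long genes on the 16 lists, 19 are on more than 1 of them, and many act in neural cells too.

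The lists were also set against gene length and genomic surroundings. Entries expected from deep length alone, with the pooled density of the gene's length class, were exceeded 1.69 times by transcription factors, 1.52 times by genes of the blood vessel lining, 1.48 times by cytoskeleton genes, 1.37 times by axon guidance genes, 1.35 times by RNA-binding genes and 1.34 times by liver, kidney and gut genes. Ion channels reached 0.714 and transmitter receptors 0.568 of them. Sequence between genes within 1 Mb of the list's genes, also more than 50 kb from every end, had 38.9 entries per Mb beside transcription factors, 43.3 beside cytoskeleton genes, 29.2 beside ion channels and 25.4 beside transmitter receptors. The genes' own deep density was 2.27, 1.84, 1.26 and 1.14 times that of their surroundings. RNA-binding genes stood highest on this measure at 2.79, with 23.7 per Mb around them, and kinases and related enzymes lowest at 1.09. For all long genes it was 1.49.

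**Figure D3:**
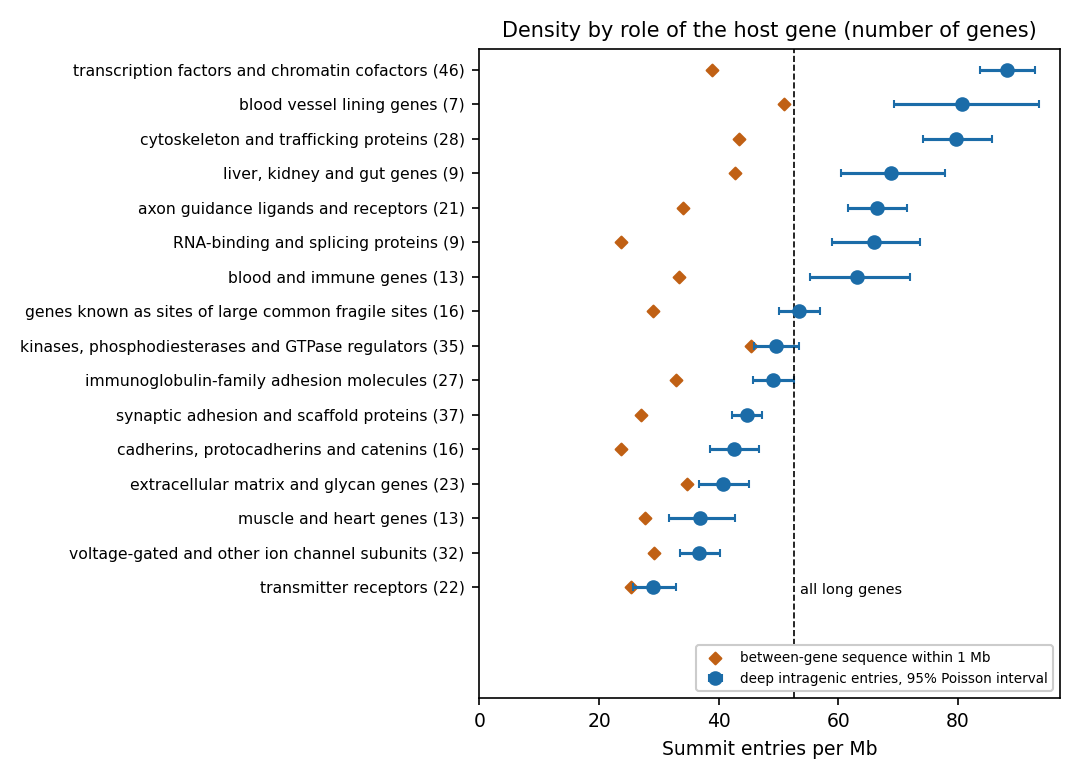
Deep intragenic entries per Mb (x axis) for 16 lists of long genes by role (y axis, number of genes in brackets), as blue points with 95% exact Poisson intervals, and the density between genes within 1 Mb of the same genes as orange diamonds. Transcription factors at 88.1 per Mb and transmitter receptors at 29.0 are the extremes here (with 1 entry per interval the blood vessel lining list comes first), on either side of the dashed line at 52.6 for all long genes.

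Along the gene, deep sites were slightly denser towards the 3′ end. For the 704 genes with a strand in the RefSeq table, the 5′ side of the midpoint had 5739 entries, 50.3 per Mb, and the 3′ side 6456, 57.0 per Mb. The ratio of 5′ to 3′ density was 0.881 (95% interval 0.850 to 0.913). More entries lay on the 3′ side in 338 genes, on the 5′ side in 297, and 69 genes had equal numbers. In 10 equal bins of the gene span the density ran from 40.7 per Mb (35.6 to 46.3) in the first to 60.3 (57.0 to 63.8) in the last but one and 52.1 (46.2 to 58.5) in the last. Only genes of more than 500 kb have deep sequence in the first and last bins, 5.58 and 5.44 Mb, against 29.8 Mb in the fifth. Genes of 500 kb or more had 46.5 deep entries per Mb in all. The bins thus mix position with gene length, whose part was not tested.

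**Figure D4:**
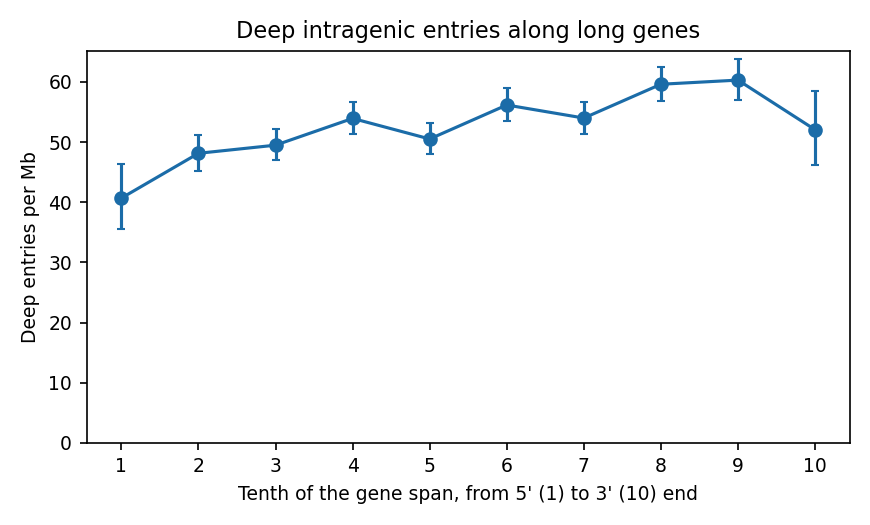
Deep intragenic entries per Mb of deep sequence (y axis) in 10 equal bins of the gene span from the 5′ to the 3′ end (x axis) for 704 long genes, with 95% exact Poisson intervals. The lowest point, 40.7 per Mb, is the first bin and the highest, 60.3, the last but one. The first and last bins hold only genes of more than 500 kb.

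Pooled density inside the gene differed by less than counting error between genes with and without an open start. Among 541 long genes whose first listed start lies within 1 kb of the gene's 5′ end, 86.9% had an entry there. The 470 genes with one had 51.2 deep entries per Mb (50.1 to 52.4) and the 71 without had 53.2 (50.1 to 56.4). Per gene the medians were 47.4 and 38.9, with central 50% ranges of 30.4 to 75.1 and 16.7 to 74.6. Of the 10 genes in this comparison without a deep site, 4 were among the 470 with an open start and 6 among the 71 without. The share of genes lacking a deep site was thus higher among the 71.

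Entries at internal starts of protein-coding transcripts had the highest median fold. In the deep sequence RefSeq lists 269 starts of protein-coding transcripts from 192 genes, and 151 of them (56.1%, 95% exact binomial interval 49.98 to 62.2%) overlapped an interval, in 121 genes. Elsewhere on these chromosomes 63.4% of 19815 protein-coding starts did. Starts of long non-coding RNAs were open less often, 63 of 526 (11.98%) in deep sequence and 23.6% elsewhere. Starts of 1 gene can share an interval, so windows are not independent. Entries at deep coding starts had a median of 4.90-fold and 47 reads, with an interval width of 942 bp. The 92 entries at deep long non-coding RNA starts had medians of 3.14-fold and 22 reads. The 15199 deep entries at no listed start had 2.98-fold, 20 reads and 345 bp. They include entries whose host gene is not in the table.

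The strongest of these starts was that of Stard13 at chromosome 5, 151190193, with 14.1-fold and 140 reads in an interval of 881 bp, 238 kb inside the gene. Shroom3, an actin-binding protein of neural tube closure, had 11.9-fold and 206 reads at 92897993 on the same chromosome. Fgf12, a modulator of sodium channels, had 11.7-fold and 94 reads at chromosome 16, 28564495. Nrxn3 had 10.2-fold and 175 reads at chromosome 12, 89812483, 1089.8 kb from the 5′ end of its span, where the printed sequence has 12 CG pairs. Robo2 had 8.27-fold and 137 reads at 74411825, and 5.8-fold and 41 reads at 75092770. Robo1 had 8.12-fold and 110 reads at 72663149, and Dlg2 7.38-fold and 46 reads at 92234970. Foxp1 had 7.98-fold and 145 reads at chromosome 6, 99028298. These examples, except the first, were chosen after their values were seen. Macrod2 and Pde4d, also among the 10 richest genes, have no deep start in the table. Auts2 and Ptprd are not matched in it, so their internal starts were not examined.

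Open internal starts were richer in CG pairs. The 151 windows with an entry had a median of 11 CG pairs in 300 bases (central 50% 6 to 20) and 56.7% G and C. The 118 without had 4 CG pairs (2 to 6.75) and 46.2% G and C. With 20 CG pairs or more, 40 of 40 deep starts were open (95% exact binomial interval 91.2 to 100%). With 10 to 19 the share was 78.9% (65.3 to 88.9%), with 6 to 9 it was 56.5%, and with 3 to 5 it was 36.8%. With 2 or fewer it was 15.0% (5.71 to 29.8%). Other protein-coding starts showed the same order, from 4.14% to 99.1%. At 3 to 5 pairs 16.4% of them were open (15.0 to 17.8%), below the interval of the deep starts (25.4 to 49.3%), and at 10 to 19 pairs 90.5% were (89.6 to 91.4%), above theirs.

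**Figure D5:**
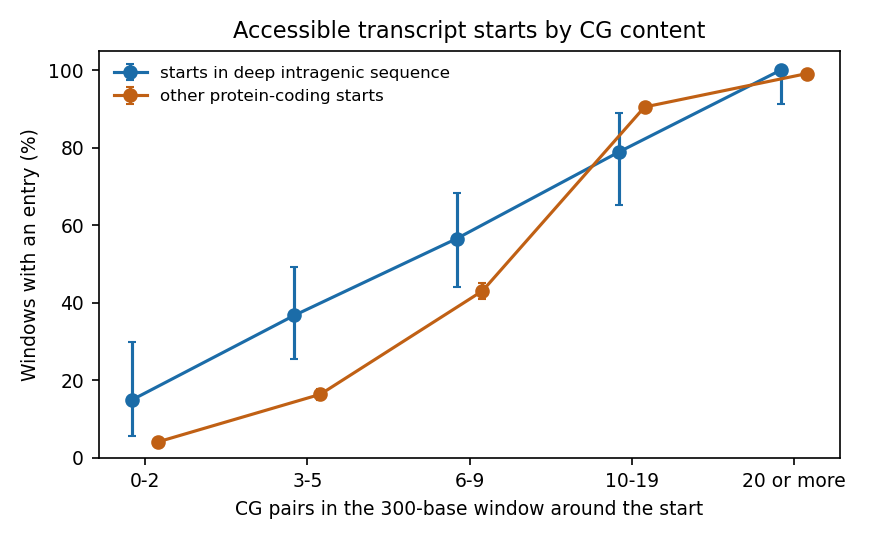
Share of 300-base windows around protein-coding transcript starts that overlap an entry (y axis, percent) by number of CG pairs in the window (x axis), for starts in deep intragenic sequence (blue) and all others (orange), with 95% exact binomial intervals. Both rise from the left class, 15.0% and 4.14%, to the right class, 100% and 99.1%.

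Short motifs were counted in the same windows on both strands. CAGCTG, an E-box bound by basic helix-loop-helix factors, was in 23.8% of the 151 open deep coding starts and 15.3% of the 118 others, against 16.3% of all 31395 windows. TAATTA, a homeodomain core, was in 6.62% and 10.2%, against 5.26% of all windows. CAGATG, another E-box, was in 21.2% and 20.3%, against 17.2%. ACAAAG, a Sox core, was in 18.5% and 25.4%, against 18.6%, and ATGCAAAT, the POU octamer, in 3.31% and 3.39%, against 1.75%. CATATG, an E-box of Olig and Neurod factors, was in 5.96% and 5.93%, against 3.71%. The AP-1 letters TGACTCA were in 3.97% and 9.32%, against 5.26%. The Onecut letters ATCGAT were in 0 of the 151 and 2 of the 118 windows, against 0.917% of all windows. Spaced motifs of Ebf, CTCF and Nfi were in 2, 3 and 0 of the 151 and in 0.921%, 2.47% and 0.0382% of all windows. No match says only that these letters are not in the window. The 3 E-box motifs share their outer letters, CA and TG. Base composition differs between the sets, as given above, and its part in these shares was not tested.

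The highest folds among deep sites lay away from listed starts, as did 97.6% of all deep sites. RefSeq's start table has 704 of the 932 long genes. All 50 deep entries with 20-fold or more, and 98 of the 100 highest, overlapped no start in it, close to the share over all deep sites. Of the 1000 highest, 918 overlapped none. A coding start was overlapped by 70 of these 1000, against 1.77% of all deep sites. What the sites with the highest folds are was not tested: no genome sequence or list of problem regions was used here. The highest −log10 q was in Chl1, an adhesion gene, at chromosome 6, 103649049 to 103649292, with 47.7-fold and 2370 reads over a background of 48.7 in an interval of 244 bp. Marchf1 had the highest fold, 54.1 with 893 reads (chromosome 8, 65830792 to 65831274), followed by Cntnap2 with 51.6-fold and 823 reads (chromosome 6, 46392274 to 46392866). Stpg2 had 46.6-fold, Babam2 46.6, Magi2 45.4, Dscam 43.4, Sntg1 43.1, Negr1 42.1, A830018L16Rik 40.1 and Gphn 39.7, with 289 to 527 reads. The 100 highest deep entries had a median interval width of 427 bp, compared with 349 bp over all intervals with deep sites and 942 bp at deep coding starts. Each site named here had more reads than the 189 that 5% of gene-end sites exceeded.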

How the data were processed

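ATAC-seq libraries of 1 group with 2 replicates were analysed from 1 peak list pooled by the authors, per the file name, so samples could not be compared. MACS2 2.2.7.1, BWA 0.7.1.7, Trim Galore and the mm10 build appear in the submitters' processing notes, beside SAMtools 1.7.2 and cutadapt 0.6.2. Settings, the filter applied, duplicate handling and any Tn5 shift were not given in the sources used here. The deposited fold is a ratio of summit signal to local background. The deposited −log10 p-value and −log10 q-value are the caller's, and the deposited score was not used. All describe peaks within this list.

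Reads and background were solved from fold, (reads + 1)/(background + 1), and the Poisson tail above the reads. For 99.96% of entries the reads were whole to within 0.01. The lowest were 11 reads and a background of 5.37. The library depth is not known. On simulated data 100% of 5000 read numbers were recovered, and planted density ratios of 1 and 2 came out as 1.01 and 2.03.

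Gene spans came from a RefSeq table of GRCm38.p6 with 20661 protein-coding genes on chromosomes 1 to 19. Strand and start sequences came from RefSeq's promoter table, which matched 704 of 932 long genes. No genome sequence was used, so letters of other sites were not read. Lengths of sequence were computed per zone. Densities have exact Poisson and shares exact binomial 95% intervals, which cover counting error only. Python 3.11.15, numpy 2.4.6, pandas 2.3.3 and scipy 1.17.1 were used. Coordinates count from 1.

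The sites and gene lists were chosen with earlier results of these data known. Named by rule were the 10 genes with most entries, most per Mb (with 100 kb or more of deep sequence), most deep sequence, and most deep sequence without an entry. Also named were the top 3 of each list and its longest gene without an entry, the 10 highest entries by fold and by −log10 q, and the 5 densest windows of 100 kb. Some genes that the rule names are not reported here. List members given as extremes of density were named after their values were seen. Alternatives changed the q-value limit, entries per interval, gene span, distance, background and the gene ends used.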

Additional observations from a re-analysis of the deposited data

How the results depend on the processing

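No paired analysis was possible because both replicates were pooled into 1 list, and for the same reason no replicate could be left out. The density of deep sites exceeded that between genes under 9 other settings, from 1.425 to 1.94 times, against 1.61. Weighted to the same distance classes, chosen after the data were seen, it was 1.41 times as high. Keeping the upper 50% of entries by −log10 q left 6594 sites, 22.25 per Mb, a ratio of 1.55, medians of 4.71-fold and 34 reads, 100% with q under 0.05 and 91.5% of long genes with a site. Keeping q-values under 0.05 gave 42.0 per Mb, 3.30-fold, 23 reads and, by construction, 100%. With 1 entry per interval there were 42.1 per Mb and 78.7% had q under 0.05. A gene span of 100 kb gave 53.5 per Mb and 74.85% of genes. A span of 500 kb gave 7145 sites, 46.5 per Mb, a ratio of 1.425, 80.8% with q under 0.05 and 98.6% of genes. A distance of 25 kb gave a ratio of 1.525. A distance of 100 kb gave 10076 sites, 49.98 per Mb, a ratio of 1.68 and 85.1% of genes. Counting the ends of all genes gave 8957 sites, 48.4 per Mb, a ratio of 1.94, 19 reads, 79.1% with q under 0.05 and 88.4% of genes. Apart from shares fixed by the alternative's construction, the causes were not tested. The other 32 values stayed within their interval, or for counts within 1.5 times. By gene role, transcription factors stayed at 1.63 to 1.72 times and transmitter receptors at 0.538 to 0.573 times the density of all long genes with q under 0.05 or 1 entry per interval, and 1 list, that of fragile sites, changed side, with 1 entry per interval. With that setting the blood vessel lining list came first at 1.637 and transcription factors second at 1.631. Requiring the summit inside the start window, an alternative chosen after the data were seen, lowered the share of open deep coding starts from 56.1% to 38.3%, beside 43.1% elsewhere. Weak sites rest on few reads: 25% of deep sites had 15 or fewer, close to the lowest listed number of 11.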
